A study of Rattus norvegicus with 15 samples.

Results

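The mitogen-activated, protein kinase C and calcium-dependent kinases, with their regulatory subunits and near relatives in the same signalling routes, were examined in rat liver during the formation of hepatocellular carcinoma. Members were all probes with exactly 1 gene symbol on the platform annotation whose symbol starts with Mapk, Map2k, Map3k, Map4k, Prkc, Prkaa, Prkab, Prkac, Prkar, Prkg, Camk, Rps6k, Akt, Pik3, Raf, Jak, Mark or Csnk. This rule found 59 genes, each with 1 probe, among the 3400 genes so named. The rule goes by symbol, so it also took in a scaffold (Mapk8ip1), a pseudokinase (Camkv) and the CaM kinase II inhibitors Camk2n1 and Camk2n2, which are not active kinases. The study compared total RNA of 3 liver tissues on 15 expression arrays, 5 arrays a tissue, at 70 weeks of diet in male Fischer344 rats (1 control sample is labelled only Fischer). Control samples came from the liver of rats on a basal diet. Cirrhotic samples were the noncancerous liver around a carcinoma, and carcinoma samples were the tumour itself, both from rats on a choline-deficient, L-amino acid-defined diet. The cirrhotic and carcinoma tissues therefore share the diet, and neither comparison with control separates the diet from the lesion. Without choline the hepatocyte cannot export fat properly, and the diet is a known route from steatosis through cirrhosis to carcinoma without a genotoxic agent.

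Protein kinases pass signals from the cell surface by adding phosphate to other proteins. In the MAP kinase cascade a MAP kinase kinase kinase activates a MAP kinase kinase, which activates a MAP kinase such as p38 or JNK. Protein kinase C answers to diacylglycerol and, in its conventional isoforms, calcium, and the calmodulin-dependent kinases answer to calcium through calmodulin. Protein kinase A is a tetramer whose regulatory subunits hold the catalytic subunits inactive until they bind cyclic AMP; in the liver it carries the glucagon signal to glycogen breakdown and gluconeogenesis. Phosphoinositide 3-kinase, Akt and S6 kinase form the route by which insulin and growth factors drive glucose use and protein synthesis. These kinases are mostly switched by phosphorylation and second messengers, and the arrays measured only their RNA.

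The deposited values are ratios in which each probe is divided by its own median over the 15 arrays. They were quantile-normalized and taken to log2, and this normalized log2 ratio is the scale of every level below; a difference of 1 is a 2-fold change. A level near 0 is the probe's usual level in this series, so levels cannot be set against one another between genes, and no value says whether a gene was expressed at all. The lowest deposited ratio, 0.01, is shared by 657 values of 555 probes, and 11 of these values belong to 9 of the kinase genes. These values were uneven over the arrays: control 1 held 229, cirrhotic 1 held 209, and no other array held more than 76. Of the 11 kinase values, 5 were in cirrhotic 1. Quantile normalization gave this 1 ratio a different level on each array, from -2.39 in control 1 to -3.88 in carcinoma 1. Levels at the lowest ratio therefore cannot be ranked between arrays, and one can lie above a value of another array that was not at it. Differences drifted along the probe numbering: among the 902 probes numbered 3000 to 3927 the median difference between cirrhotic and control liver was -0.76, and among the 844 probes numbered 1 to 899 it was 0.40, so the median of the nearest probes, 50 to either side in the numbering, or the difference left with this running median removed, is given where that correction ends a call or moves a difference by over 1.5 times. In bulk tissue, fewer cells of a type and less RNA per cell cannot be told apart. Of the hepatocyte markers 11 of 12 were measured, and their mean lay between -1.51 and 0.16 in the control samples, -1.82 and 1.54 in the cirrhotic and -0.25 and 1.28 in the carcinoma samples. These ranges overlapped, but all 11 markers differed upward between carcinoma and control, with a median of 0.85, where 50.1% of all probes did so. Between carcinoma and cirrhotic liver 8 of the 11 differed upward, with a median of 0.56, or 0.89 with the running median removed. Of the stellate cell and myofibroblast markers 11 of 13 were measured. Their mean in the cirrhotic samples (-0.49 to -0.24) lay below both the control (-0.11 to 0.26) and the carcinoma samples (-0.16 to 0.65), a direction opposite to the scarring that the cirrhotic label implies. Between cirrhotic and control liver their median difference was -0.14, or -0.24 with the running median removed, and 4 of the 11 differed upward. The markers Col1a1, Col3a1 and Vim reached an unadjusted limma p under 0.05, with differences of -1.11, -1.34 and -1.37. No marker did so upward, and 5.62% of all probes did so downward. With the running median removed these 3 differences were -0.26, -0.92 and -0.81, each with an unadjusted limma p above 0.05. No probe at all passed the adjusted test in this comparison, so that test cannot decide for the markers. Means of the lymphocyte (7 of 14 measured), macrophage (5 of 10), endothelial (5 of 10), cholangiocyte (4 of 8) and red blood cell (2 of 6) markers overlapped between every pair of tissues. The part of cell composition in the kinase results was not tested. The labels do not say which samples came from separate animals, so a p-value here reflects the spread among samples, which may be technical.

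No kinase gene passed the test in any comparison. With limma and Benjamini-Hochberg adjustment over all 3757 probes, 0 probes (0%) of the whole table had an adjusted p under 0.05 between cirrhotic and control liver, and the same held between carcinoma and control (0%) and between carcinoma and cirrhotic liver (0%). The smallest adjusted p of a kinase gene was 0.307, 0.564 and 0.224 in the 3 comparisons. Counts at an unadjusted p under 0.05 are therefore read only against the share of all probes that reached it. Between cirrhotic and control liver 6 of the 59 kinase genes reached it, against a background of 9.64% of all probes. In that comparison 1 gene was higher (background 4.02%) and 5 were lower (5.62%) in cirrhotic liver, so the share of kinases was near the background. Between carcinoma and control 5 genes reached it against 7.4%, with 3 higher (3.65%) and 2 lower (3.75%), again near the background. Between carcinoma and cirrhotic liver 13 of 59 genes reached it against 13.2% of all probes, with 8 higher (6.95%) and 5 lower (6.28%) in carcinoma. The 5 values of one tissue lay wholly beyond the 5 of the other for 2 kinase genes between cirrhotic and control liver (1.65% of all probes), for 2 between carcinoma and control (1.89%) and for 3 between carcinoma and cirrhotic liver (2.71%). The median difference over the 59 genes was 0.03, 0.02 and 0.17 in the 3 comparisons, beside 0.02, 0.00294 and -0.02 over all probes. A typical 95% interval of a kinase gene reached 1.24 either side of its difference, so smaller differences could not be resolved for most members.

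**Figure D1:**
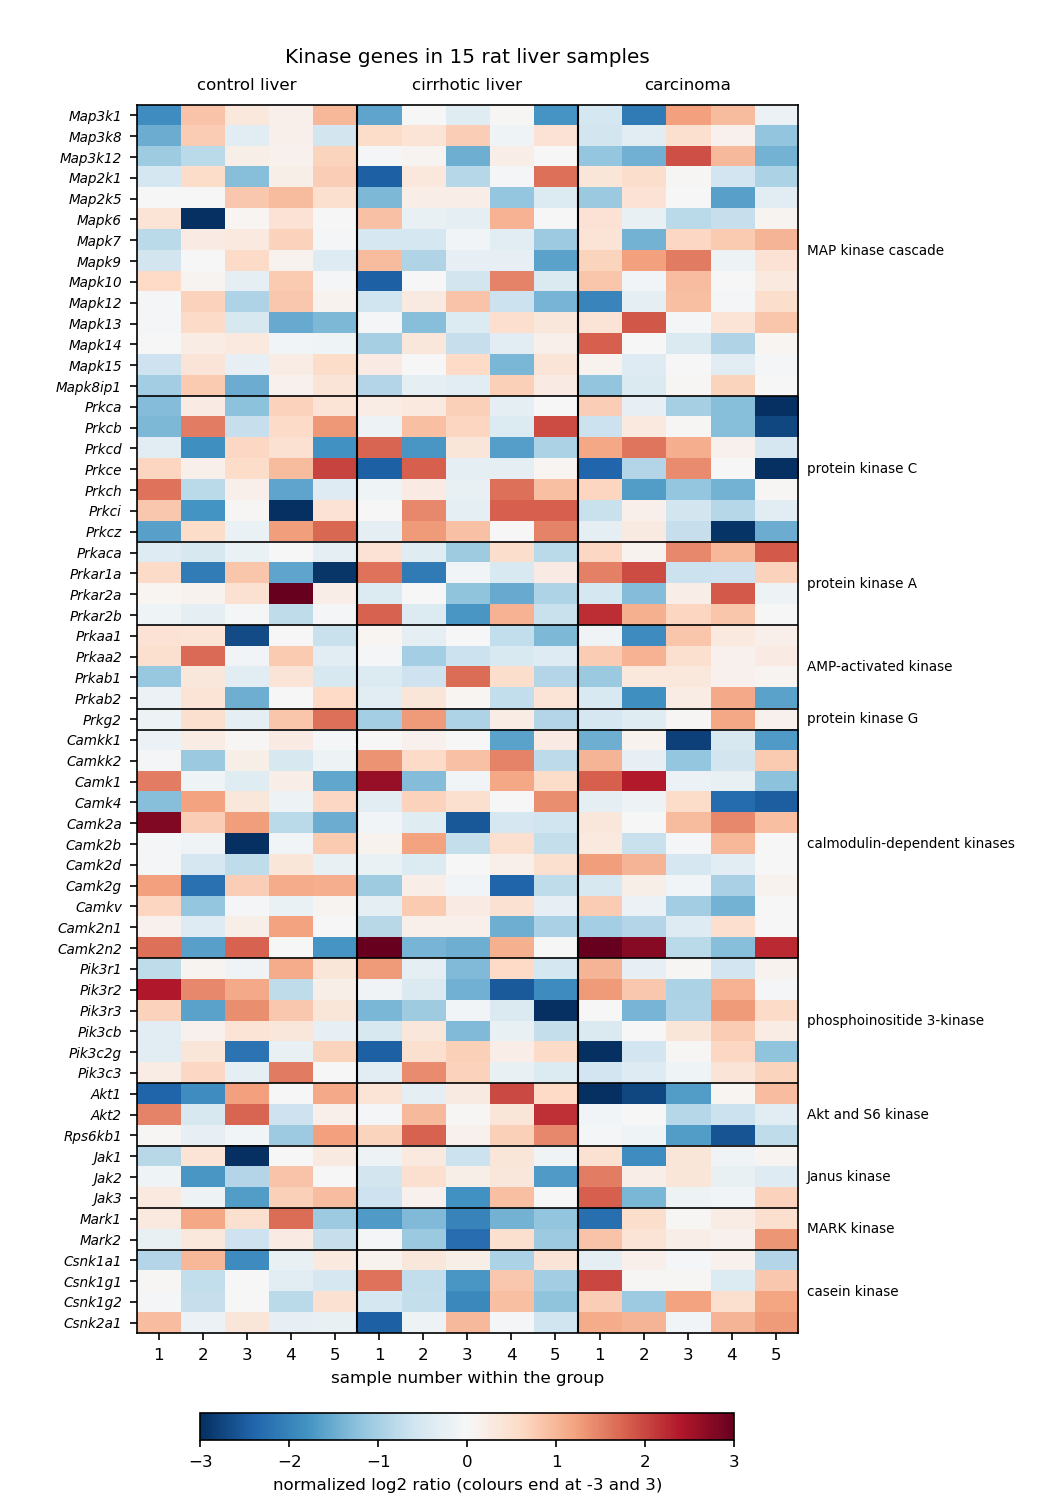
Normalized log2 ratio of the 59 kinase genes (rows, ordered by family) in the 15 samples (columns, grouped by tissue), as colours that end at -3 and 3. Prkar2a in control 4, at 4.41, is a single high sample, and Mark1 is low in all 5 cirrhotic samples.

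**Figure D2:**
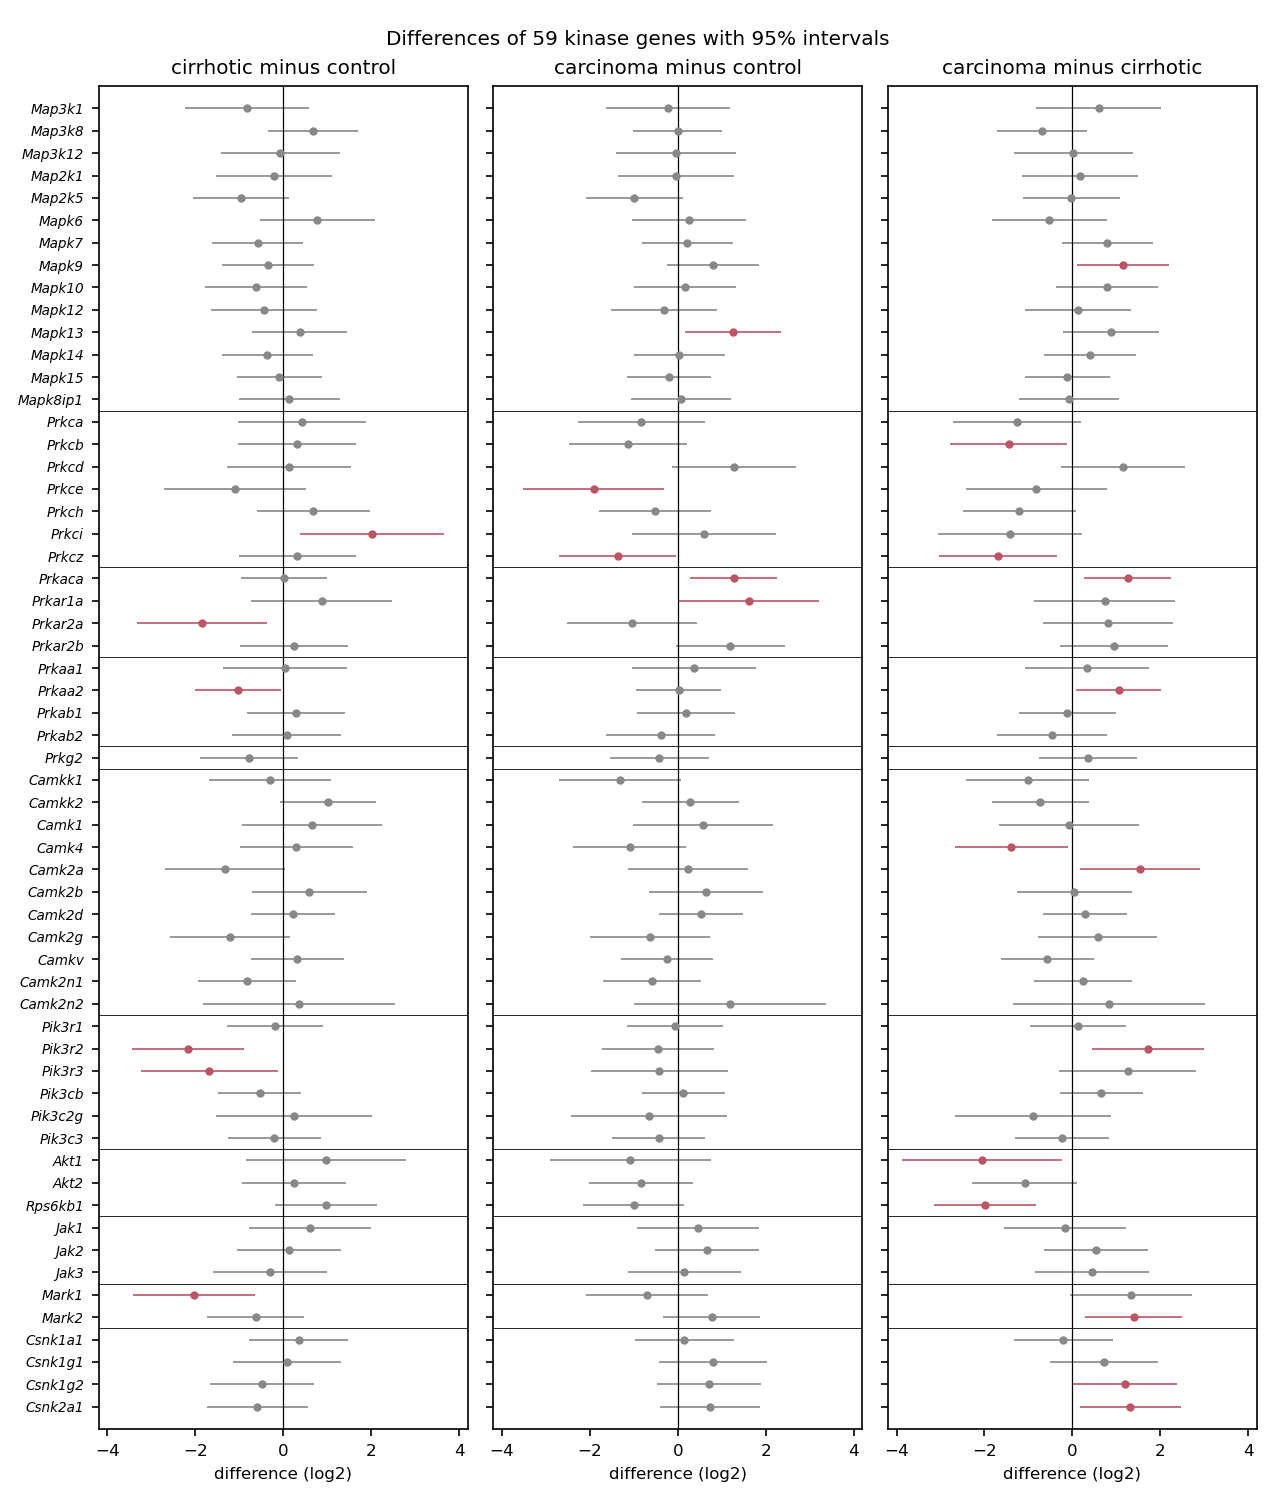
Difference in normalized log2 ratio of each kinase gene (rows) in the 3 comparisons (panels), as points with 95% limma intervals. The interval leaves out 0 for 6, 5 and 13 of the 59 genes in the 3 panels.

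Among the subunits of protein kinase A, the catalytic subunit gene Prkaca had a carcinoma mean above those of both other tissues, though it did not pass the adjusted test. Its promoter and those of the regulatory subunits Prkar1a and Prkar2b, whose carcinoma means were also above their control means, are shown. These promoters were chosen because cyclic AMP signals act on many promoters through the cyclic AMP response element. Each is the 250 bases before the RefSeq start of the gene in the rat build GRCr8, written 5′ to 3′ on the strand of the gene. Prkaca lies at chr19:41083190-41083439 on the minus strand, Prkar1a at chr10:95120287-95120536 on the plus strand and Prkar2b at chr6:54381412-54381661 on the minus strand. Capitals mark the element's core TGACG and the GC box GGGCGG, which Sp1-like factors bind, on either strand.
Prkaca: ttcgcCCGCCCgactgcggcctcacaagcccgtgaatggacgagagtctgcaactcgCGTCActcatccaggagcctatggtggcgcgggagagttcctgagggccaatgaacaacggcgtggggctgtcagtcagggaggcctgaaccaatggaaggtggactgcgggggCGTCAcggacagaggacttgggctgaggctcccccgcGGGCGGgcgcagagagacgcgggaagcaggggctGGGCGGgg
Prkar1a: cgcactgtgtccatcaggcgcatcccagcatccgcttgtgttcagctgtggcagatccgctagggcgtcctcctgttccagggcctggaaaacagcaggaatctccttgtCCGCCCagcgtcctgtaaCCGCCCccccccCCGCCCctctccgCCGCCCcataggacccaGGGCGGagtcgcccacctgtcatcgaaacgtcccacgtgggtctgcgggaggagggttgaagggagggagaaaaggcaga
Prkar2b: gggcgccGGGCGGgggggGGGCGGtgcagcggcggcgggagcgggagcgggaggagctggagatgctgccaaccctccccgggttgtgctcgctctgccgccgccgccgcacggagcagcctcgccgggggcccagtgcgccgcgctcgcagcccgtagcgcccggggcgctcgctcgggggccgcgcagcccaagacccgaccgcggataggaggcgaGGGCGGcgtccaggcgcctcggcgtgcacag
The whole element, TGACGTCA, is in none of the 3 windows. The Prkaca window holds 2 cores and 3 GC boxes, the Prkar1a window 0 and 5, and the Prkar2b window 0 and 3. Over the same window of all 21851 protein-coding promoters in the table, 1.9% hold the whole element, 20.4% the core (in which the whole element is included) and 38.9% a GC box. Among the 46 kinase genes with a promoter in the table the shares were 2.2%, 23.9% and 69.6%. A match of letters is a description and does not show that a factor binds there.

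Prkaca, the alpha catalytic subunit that phosphorylates the targets of cyclic AMP, measured -0.38, -0.48, -0.20, -0.002 and -0.30 in control samples 1 to 5. It measured 0.43, -0.36, -1.07, 0.54 and -0.81 in cirrhotic samples 1 to 5 and 0.63, 0.10, 1.43, 1.0 and 1.85 in carcinoma samples 1 to 5. Every carcinoma value lay above every control value, while cirrhotic samples 1 and 4 reached into the carcinoma range. The difference between carcinoma and control was 1.27 (95% interval 0.29 to 2.26, adjusted p = 0.564) and between carcinoma and cirrhotic liver 1.25 (95% interval 0.27 to 2.24, adjusted p = 0.268), and cirrhotic and control means were 0.02 apart. With the running median of the neighbouring probes removed these differences were 1.16 (0.16 to 2.16) and 1.63 (0.62 to 2.63). The interval of both excluded 0 in all 15 fits that left out 1 sample.

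Prkar2b, the RII-beta regulatory subunit, measured -0.14, -0.28, -0.03, -0.76 and -0.03 in the control samples, 1.78, -0.41, -1.74, 1.04 and -0.68 in the cirrhotic and 2.22, 1.06, 0.64, 0.82 and -0.01 in the carcinoma samples. All carcinoma values lay above all control values, by a narrow margin in carcinoma 5, and the cirrhotic samples covered nearly the whole span of both. The difference between carcinoma and control was 1.19 (95% interval -0.04 to 2.43, adjusted p = 0.66), an interval that takes in 0. Prkar1a, the RI-alpha subunit, measured 0.58, -2.09, 0.83, -1.59 and -2.92 in control, 1.64, -2.13, -0.09, -0.45 and 0.25 in cirrhotic and 1.51, 1.96, -0.65, -0.63 and 0.69 in carcinoma samples. Controls 2, 4 and 5 were low, and controls 1 and 3 lay within the carcinoma range. Its carcinoma minus control difference was 1.61 (95% interval 0.01 to 3.22, adjusted p = 0.656), and the interval excluded 0 in only 6 of the 15 fits that left out 1 sample and in neither of the fits without quantile normalization.

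Prkar2a, the RII-alpha subunit, had differences of the opposite sign against control. It measured 0.06, 0.11, 0.45, 4.41 and 0.19 in the control, -0.41, 0.02, -1.21, -1.52 and -0.91 in the cirrhotic and -0.52, -1.30, 0.20, 1.84 and -0.16 in the carcinoma samples. All cirrhotic values lay below all control values, but control 4 alone stood far above the rest. The cirrhotic minus control difference of -1.85 (95% interval -3.33 to -0.37, adjusted p = 0.413) became -1.03 without control 4, and its interval then took in 0. The nearest probes had a median difference of -1.18, and -0.77 (-2.28 to 0.73) was left with it removed. All 4 genes differed upward between carcinoma and cirrhotic liver, with a median of 0.88, where 49.3% of all probes did so. The mean of the 4 genes ran from 0.40 to 0.96 in the carcinoma samples, from -0.76 to 0.52 in the control and from -1.03 to 0.86 in the cirrhotic samples, and the tissues overlapped.

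**Figure D3:**
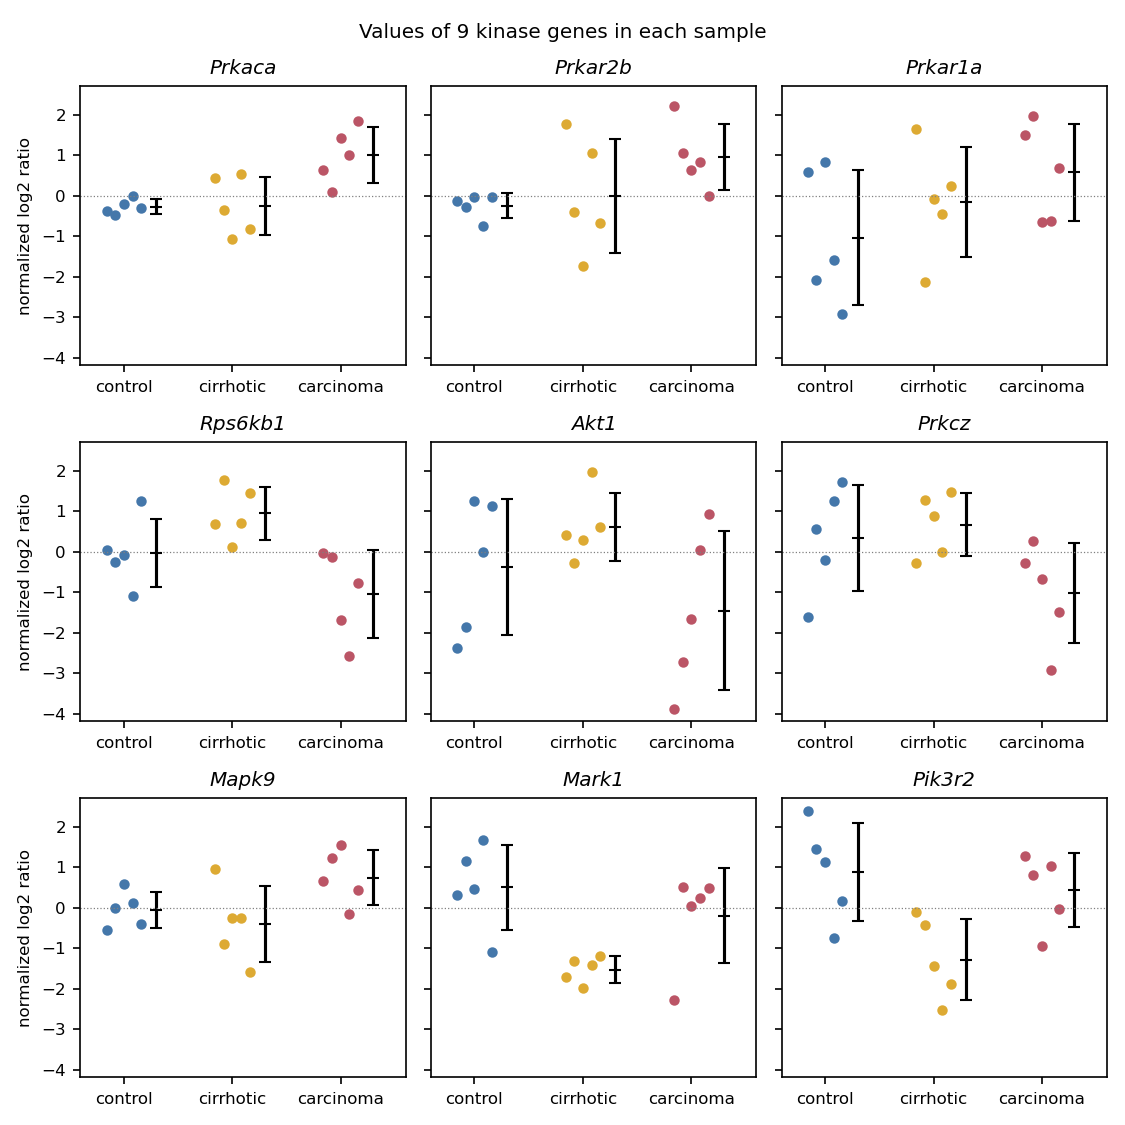
Normalized log2 ratio of 9 kinase genes in each sample (points) of control, cirrhotic and carcinoma liver, with the mean and SD of the 5 samples beside them in black. Prkaca in carcinoma lies above all controls, Rps6kb1 in carcinoma lies below all cirrhotic samples, and Mark1 in cirrhotic liver lies below all controls.

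The MAP kinase cascade, with 14 genes, was the largest family, and few of its genes stood apart between tissues. Its median differences were -0.28, 0.01 and 0.14 in the 3 comparisons, and 0, 1 and 1 of the 14 genes had an interval that excluded 0, beside 9.64%, 7.4% and 13.2% of all probes. With the running median removed the medians were -0.14, -0.03 and 0.21. Mapk9 encodes JNK2, a stress-activated kinase that phosphorylates Jun. It measured -0.56, -0.02, 0.58, 0.11 and -0.39 in the control, 0.94, -0.89, -0.25, -0.25 and -1.59 in the cirrhotic and 0.66, 1.22, 1.55, -0.15 and 0.44 in the carcinoma samples. Most carcinoma samples were high and most cirrhotic samples were below 0, but cirrhotic 1 and carcinoma 4 broke that order. The difference between carcinoma and cirrhotic liver was 1.15 (95% interval 0.11 to 2.20, adjusted p = 0.341), and 1.56 (0.55 to 2.57) with the running median removed. Its interval took in 0 without quantile normalization and without cirrhotic 2 or 5 or carcinoma 2 or 3. Mapk10, which encodes JNK3 and is best known from neurons, sits on the next probe number and differed by 0.79 (95% interval -0.37 to 1.95). Its cirrhotic 1 value, -2.46, was at the lowest deposited ratio, and its other cirrhotic values ran from -0.55 to 1.49. Mapk13 encodes p38 delta, a stress kinase of epithelia. It measured -0.03, 0.58, -0.48, -1.51 and -1.34 in the control samples, and ran from -1.28 to 0.49 in the cirrhotic and from -0.03 to 1.86 in the carcinoma samples. Its carcinoma minus control difference was 1.25 (95% interval 0.17 to 2.34, adjusted p = 0.606), an interval that took in 0 without control 4 or 5 or carcinoma 2 and, at 1.05 (-0.04 to 2.14), with the running median removed.

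The main p38 gene and the upstream kinase genes had intervals that took in 0 in every comparison. Mapk14, which encodes the main liver p38, p38 alpha, averaged 0.06 ± 0.19 in control, -0.30 ± 0.56 in cirrhotic and 0.10 ± 1.02 in carcinoma liver (SD, n = 5). Its carcinoma minus control difference was 0.03 (95% interval -1.0 to 1.07). Map2k1, which encodes the MAP kinase kinase MEK1, differed from control by -0.21 (95% interval -1.53 to 1.11) in cirrhotic liver and by -0.04 (95% interval -1.36 to 1.28) in carcinoma. Map3k1, a kinase at the top of the JNK route, differed from control by -0.83 (95% interval -2.24 to 0.59) and -0.23 (95% interval -1.64 to 1.19). Each of these intervals takes in a 2-fold difference in at least one direction, so they do not show that the genes stayed level. Mapk7 and its activator Map2k5, which encode ERK5 and MEK5, had unlike differences: carcinoma minus control was 0.21 for Mapk7 and -0.99 (95% interval -2.09 to 0.12) for Map2k5. Mapk6, Mapk12, Mapk15, Map3k8, Map3k12 and the JNK scaffold Mapk8ip1 all differed by less than 0.80 in every comparison.

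In the protein kinase C family most isoforms had their lowest mean in carcinoma. Of the 7 isoforms, 5 were below control and 6 below cirrhotic liver in carcinoma, with median differences of -0.83 and -1.26, and 2 in each comparison had an interval that excluded 0, beside 7.4% and 13.2% of all probes. The second median was -0.82 with the running median removed, and the neighbours of these genes had a median of -0.54 in that comparison. The mean of the 7 genes was lowest in carcinoma 4 and 5, at -1.09 and -1.71. In carcinoma 1 to 3 it was -0.20, -0.07 and -0.12, within the control range of -0.35 to 0.53. Beside the cirrhotic samples, at -0.15, 0.60, 0.25, 0.12 and 0.76, carcinoma 1 to 3 were near the lowest value. The low tumours were not the same for every isoform: Prkch measured 0.03 in carcinoma 5, and Prkce -0.01 in carcinoma 4. Prkcz encodes an atypical isoform that needs no calcium or diacylglycerol and takes part in cell polarity and insulin signalling. It measured -1.62, 0.55, -0.20, 1.25 and 1.73 in the control, -0.29, 1.27, 0.87, -0.01 and 1.48 in the cirrhotic and -0.29, 0.26, -0.69, -2.93 and -1.49 in the carcinoma samples. The difference was -1.69 (95% interval -3.03 to -0.36, adjusted p = 0.27) against cirrhotic liver and -1.37 (95% interval -2.70 to -0.03, adjusted p = 0.656) against control, and the latter became -0.89 without carcinoma 4 and -1.34 (-2.71 to 0.03) with the running median removed. Both intervals took in 0 without quantile normalization or without carcinoma 4, and the interval against control excluded 0 in only 7 of the 15 fits that left out 1 sample.

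Prkce encodes the epsilon isoform, which is activated by diacylglycerol alone and is known in the fatty liver for blunting insulin receptor signalling. It measured 0.65, 0.15, 0.55, 0.94 and 2.04 in the control, -2.46, 1.80, -0.29, -0.28 and 0.07 in the cirrhotic and -2.37, -0.87, 1.41, -0.01 and -3.39 in the carcinoma samples. All controls were above 0, whereas the carcinoma samples ran from far below to above the controls' middle value, and cirrhotic 1 was at the lowest deposited ratio. Its carcinoma minus control difference was -1.92 (95% interval -3.53 to -0.30, adjusted p = 0.587), and -1.91 (-3.66 to -0.15) with the running median removed. The interval took in 0 without quantile normalization and without control 5 or carcinoma 1 or 5. Prkcb, a conventional isoform best known from B lymphocytes, ran from -0.40 to 1.96 in cirrhotic and from -2.73 to 0.30 in carcinoma samples. That difference of -1.45 (95% interval -2.79 to -0.11, adjusted p = 0.345) became -0.97 without carcinoma 5 and -1.15 (-2.62 to 0.31) with the running median removed, and its interval also took in 0 without cirrhotic 2, 3 or 5 or carcinoma 4 or 5. Over the same samples the lymphocyte marker mean ran from -0.19 to 0.81 in cirrhotic and from -0.93 to 0.58 in carcinoma liver. Prkca, the conventional isoform found in most tissues, differed by -1.26 (95% interval -2.71 to 0.19) and Prkch, the eta isoform of epithelia, by -1.21 (95% interval -2.48 to 0.07) between the same tissues.

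In carcinoma 2 isoforms had a mean above control, Prkci (-0.46 beside -1.06) and Prkcd, and only Prkcd also lay above cirrhotic liver. It encodes the delta isoform, which takes part in apoptosis, and measured -0.32, -1.85, 0.62, 0.46 and -1.83 in the control, 1.74, -1.75, 0.35, -1.66 and -0.94 in the cirrhotic and 1.16, 1.61, 1.08, 0.14 and -0.51 in the carcinoma samples. The carcinoma mean was above the control mean by 1.28 (95% interval -0.13 to 2.69, adjusted p = 0.711) and above the cirrhotic mean by 1.15 (95% interval -0.27 to 2.56), intervals that take in 0. Its probe number is next to those of Prkce and Prkcz, and the nearest probes of the 3 genes had median differences of 0.09, 0.08 and 0.08 between carcinoma and control. Prkci, the second atypical isoform, measured 0.81, -1.80, 0.03, -4.78 and 0.44 in the control, -0.01, 1.45, -0.28, 1.80 and 1.80 in the cirrhotic and -0.67, 0.15, -0.55, -0.86 and -0.35 in the carcinoma samples. Control 4 lay far below the rest, and the cirrhotic minus control difference of 2.01 (95% interval 0.38 to 3.65, adjusted p = 0.421) became 1.11 without it and 1.39 (-0.09 to 2.86) with the running median removed. The interval took in 0 without control 4 or cirrhotic 4 or 5.

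The calmodulin-dependent kinases, with 11 genes, had median differences of 0.30, 0.22 and 0.05, and no interval excluded 0 against control. With the running median removed the first median was -0.05, and the neighbours of these genes had a median of 0.45 in that comparison. Camk2a encodes the alpha chain of CaM kinase II, best known from neurons, and measured 2.78, 0.75, 1.26, -0.80 and -1.49 in the control, -0.09, -0.36, -2.54, -0.51 and -0.60 in the cirrhotic and 0.35, -0.02, 0.96, 1.44 and 0.90 in the carcinoma samples. The carcinoma values all lay above the cirrhotic values, and the controls spread over more than both together. The difference was 1.54 (95% interval 0.18 to 2.91, adjusted p = 0.327), and 0.88 (-0.33 to 2.08) with the running median removed, and the nearest probes had a median difference of 0.60. Its uncorrected interval took in 0 without cirrhotic 3 or carcinoma 3 or 4. Camk4, a kinase of nucleus and cytoplasm known from T lymphocytes and neurons, ran from -0.33 to 1.40 in cirrhotic and from -2.48 to 0.54 in carcinoma liver, with carcinoma 4 and 5 lowest. It differed by -1.39 (95% interval -2.67 to -0.10, adjusted p = 0.345) between these tissues, and by -1.04 (-2.35 to 0.27) with the running median removed. The interval also took in 0 with low values floored and without cirrhotic 2, 3 or 5 or carcinoma 4 or 5. Camk2d and Camk2g, the delta and gamma chains that most non-neuronal tissues use, differed from control in carcinoma by 0.52 (95% interval -0.44 to 1.48) and -0.64 (95% interval -2.00 to 0.72). Camkk1 and Camkk2 encode the kinases that activate Camk1 and Camk4, and Camkk2 also activates AMP-activated kinase. Camkk1 averaged 0.05 ± 0.18 in control, -0.25 ± 0.77 in cirrhotic and -1.26 ± 1.13 in carcinoma liver, a carcinoma minus control difference of -1.32 (95% interval -2.71 to 0.08). Camk2n2, an inhibitor of CaM kinase II, had the widest spread of the 59 genes, with carcinoma samples from -1.28 to 3.11 and controls from -1.76 to 1.76.

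AMP-activated kinase senses low energy and switches off fat and cholesterol synthesis. Its alpha-2 catalytic subunit gene, Prkaa2, measured 0.49, 1.70, -0.08, 0.79 and -0.31 in the control, -0.06, -1.02, -0.65, -0.46 and -0.39 in the cirrhotic and 0.77, 1.05, 0.48, 0.14 and 0.24 in the carcinoma samples. The cirrhotic samples were all below 0 and all carcinoma samples above it. The cirrhotic minus control difference was -1.03 (95% interval -2.01 to -0.06, adjusted p = 0.5) and the carcinoma minus cirrhotic difference 1.05 (95% interval 0.08 to 2.03, adjusted p = 0.345). The nearest probes differed the same way, by -0.70 and 0.69, and with that removed -0.33 and 0.35 were left. The uncorrected intervals excluded 0 in 8 and 11 of the 15 fits that left out 1 sample. Prkaa1, the alpha-1 subunit gene, differed by 0.03 (95% interval -1.37 to 1.44) and 0.32 (95% interval -1.08 to 1.73) in the same comparisons. The beta subunit genes Prkab1 and Prkab2 differed by between -0.46 and 0.30 in the 3 comparisons. Prkg2, the only gene of the cyclic GMP-dependent kinase family among the members, differed from control by -0.78 (95% interval -1.89 to 0.34) in cirrhotic liver and -0.42 (95% interval -1.53 to 0.70) in carcinoma.

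Of the 6 phosphoinositide 3-kinase genes, taken by symbol, Pik3r2 and Pik3r3 had an interval below 0 between cirrhotic and control liver (background 5.62%). In the Akt and S6 kinase family 2 of the 3 genes, Akt1 and Rps6kb1, had one between carcinoma and cirrhotic liver (6.28%). None passed the adjusted test. Pik3r2 encodes p85-beta, which ties the catalytic subunit to activated receptors. It measured 2.39, 1.44, 1.14, -0.76 and 0.17 in the control, -0.11, -0.44, -1.45, -2.53 and -1.89 in the cirrhotic and 1.28, 0.81, -0.94, 1.04 and -0.03 in the carcinoma samples. All cirrhotic values were below 0, with control 4 and carcinoma 3 reaching into their range. The cirrhotic minus control difference was -2.16 (95% interval -3.43 to -0.89, adjusted p = 0.307) and the carcinoma minus cirrhotic difference 1.71 (95% interval 0.44 to 2.98, adjusted p = 0.26). Its interval excluded 0 in all 15 fits that left out 1 sample for both. Pik3r2 lies in the stretch of probe numbers with a low cirrhotic median, and with the running median removed the differences were -1.51 (-2.80 to -0.22) and 1.14 (-0.16 to 2.43). Pik3r3, which encodes the related p55-gamma and has the next probe number, measured 0.70, -1.60, 1.39, 0.81 and 0.36 in the control and -1.38, -1.06, -0.09, -0.44 and -3.79 in the cirrhotic samples, and ran from -1.39 to 1.27 in carcinoma. That difference of -1.68 (95% interval -3.24 to -0.13, adjusted p = 0.491) became -1.08 without cirrhotic 5 and -1.06 (-2.66 to 0.53) with the running median removed, and the uncorrected interval took in 0 without control 1, 3, 4 or 5 or cirrhotic 5. Pik3r1, the gene of p85-alpha, the main regulatory subunit in liver, differed by -0.19 (95% interval -1.28 to 0.89) and -0.06 (95% interval -1.15 to 1.02) from control. The catalytic subunit genes Pik3cb, Pik3c2g and Pik3c3 differed by between -0.90 and 0.66 in the 3 comparisons.

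Rps6kb1 encodes S6 kinase 1, which raises protein synthesis downstream of mTOR. It measured 0.04, -0.25, -0.08, -1.10 and 1.24 in the control, 0.67, 1.77, 0.13, 0.71 and 1.45 in the cirrhotic and -0.03, -0.13, -1.68, -2.59 and -0.77 in the carcinoma samples. All carcinoma values were below 0 and all cirrhotic values above it, and the controls lay between and overlapped both. The carcinoma minus cirrhotic difference was -1.98 (95% interval -3.14 to -0.82, adjusted p = 0.224), the smallest adjusted p of the kinase genes. Its interval excluded 0 in all 15 fits that left out 1 sample and, at -1.13 (-2.11 to -0.14), with the running median removed, although the groups then overlapped. Against control the carcinoma difference was -1.01 (95% interval -2.17 to 0.15).

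Akt1 encodes the Akt isoform known for growth and survival, and measured -2.39, -1.87, 1.24, -0.002 and 1.13 in the control, 0.41, -0.28, 0.28, 1.98 and 0.61 in the cirrhotic and -3.88, -2.72, -1.67, 0.05 and 0.93 in the carcinoma samples. Control 1 and carcinoma 1 were both at the lowest deposited ratio, so their true level may be lower. The gap between their values, -2.39 and -3.88, came from the normalization and was not measured. Carcinoma 4 and 5 lay within the cirrhotic range. The carcinoma minus cirrhotic difference was -2.06 (95% interval -3.88 to -0.23, adjusted p = 0.327), and -1.81 (-3.69 to 0.08) with the running median removed. Its interval also took in 0 without quantile normalization and without cirrhotic 4 or carcinoma 1 or 2. Akt2, the isoform that carries the insulin signal in hepatocytes, measured 1.49, -0.48, 1.74, -0.63 and 0.15 in the control, -0.05, 0.97, 0.04, 0.37 and 2.20 in the cirrhotic and -0.07, -0.02, -0.86, -0.65 and -0.32 in the carcinoma samples. Carcinoma values were all below 0 but overlapped both other tissues, and the differences were -0.84 (95% interval -2.02 to 0.35) against control and -1.09 (95% interval -2.27 to 0.10) against cirrhotic liver. The mean of Akt1, Akt2 and Rps6kb1 ran from -1.40 to -0.05 in the carcinoma samples and from 0.15 to 1.42 in the cirrhotic samples, with the controls, at -0.87 to 0.97, across both.

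The remaining families were small. Mark1 and Mark2 encode kinases that phosphorylate microtubule-associated proteins and act in cell polarity. Mark1 measured 0.30, 1.15, 0.47, 1.67 and -1.10 in the control, -1.71, -1.31, -2.00, -1.43 and -1.20 in the cirrhotic and -2.27, 0.52, 0.04, 0.23 and 0.49 in the carcinoma samples. The cirrhotic samples were tightly grouped below every control, and carcinoma 1 alone lay beneath them. The cirrhotic minus control difference was -2.03 (95% interval -3.42 to -0.64, adjusted p = 0.354). The nearest probes had a median of -0.99 in that comparison, and -1.15 (-2.28 to -0.02) was left with it removed. Mark2, on the next probe number, measured -0.05, -1.12, -2.29, 0.49 and -1.09 in the cirrhotic and 0.85, 0.42, 0.19, 0.14 and 1.33 in the carcinoma samples, a difference of 1.40 (95% interval 0.30 to 2.50, adjusted p = 0.27). It lies in the same drifting stretch, and 0.80 (-0.20 to 1.81) was left with the running median removed; the uncorrected interval also took in 0 without carcinoma 5.

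Casein kinases are constitutively active kinases with many targets, and Csnk2a1 encodes the alpha catalytic subunit of casein kinase 2. It measured 0.94, -0.18, 0.37, -0.24 and -0.22 in the control, -2.46, -0.15, 0.98, -0.05 and -0.59 in the cirrhotic and 1.11, 1.02, -0.09, 1.02 and 1.27 in the carcinoma samples. Of the carcinoma samples 4 lay between 1.02 and 1.27, and cirrhotic 3 was nearly as high. The carcinoma minus cirrhotic difference of 1.32 (95% interval 0.17 to 2.47, adjusted p = 0.315) became 0.79 without cirrhotic 1, which was at the lowest deposited ratio. The interval of this difference took in 0 without cirrhotic 1 or carcinoma 5 and with low values floored. Csnk1g2, a gamma isoform of casein kinase 1, differed by 1.20 (95% interval 0.02 to 2.38, adjusted p = 0.371), or 0.88 (-0.26 to 2.02) with the running median removed, and its interval took in 0 in 10 of the 15 fits that left out 1 sample. All 4 casein kinase genes differed upward between carcinoma and control, by 0.15 to 0.81, each with an interval that took in 0. The Janus kinases transmit cytokine and growth hormone receptor signals to STAT proteins, and the 3 measured genes differed by less than 0.70 in every comparison. Jak2, which serves the growth hormone receptor, differed from control by 0.13 (95% interval -1.06 to 1.31) in cirrhotic liver and by 0.67 (95% interval -0.51 to 1.86) in carcinoma.

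**Figure D4:**
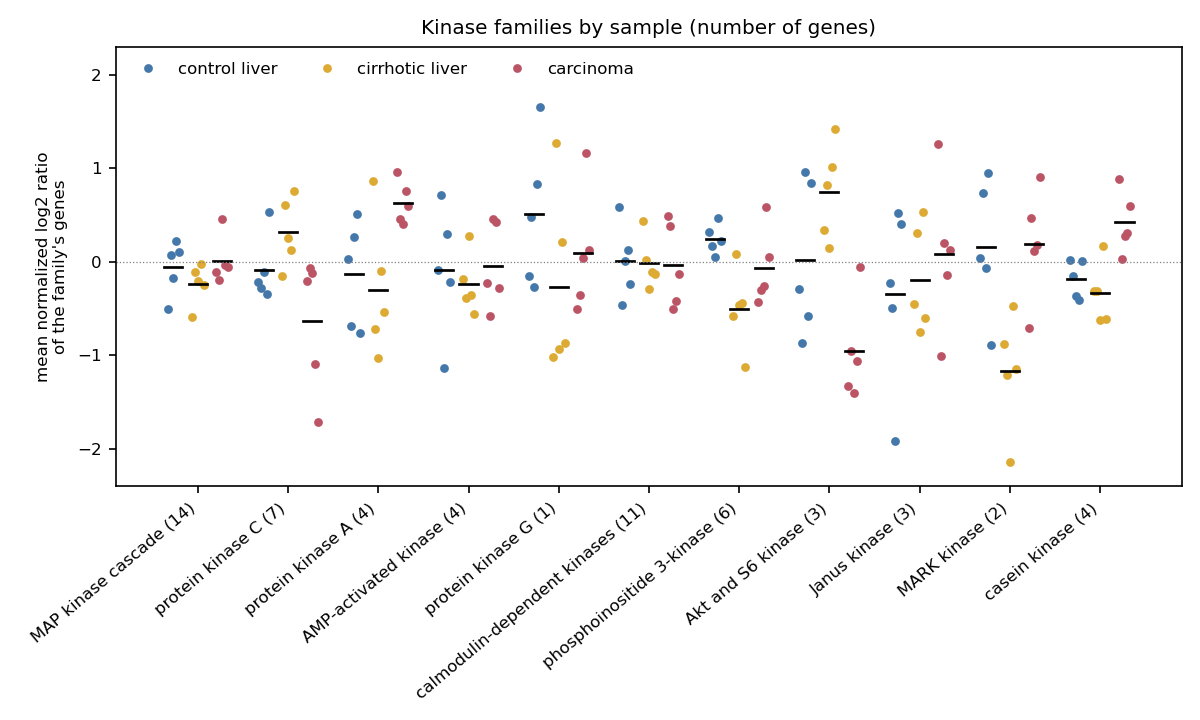
Mean normalized log2 ratio over the genes of each kinase family (horizontal axis, with the number of genes) in each of the 15 samples (points by tissue), with the tissue mean as a black bar. The carcinoma samples of the Akt and S6 kinase family lie below the cirrhotic samples, and carcinoma 4 and 5 of the protein kinase C family lie apart at -1.09 and -1.71.

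Genes that work beside these kinases were counted in lists by pathway, and again none passed the adjusted test. Of the cyclic nucleotide list, 22 of 24 genes were measured, and the intervals of 3 higher and 2 lower genes excluded 0 between carcinoma and control, where 3.65% of all probes were higher and 3.75% lower in this way. The higher genes were Adcy5 and Adcy6, adenylyl cyclases that make cyclic AMP, with differences of 2.67 (0.85 to 4.50) and 1.46 (0.28 to 2.64), and Gnas, the stimulatory G protein alpha subunit, with 1.15 (0.08 to 2.22). The lower genes were Akap6, an anchor for protein kinase A, with -1.88 (-3.29 to -0.48), and Pde5a, a cyclic GMP phosphodiesterase, with -1.69 (-3.27 to -0.11). Between carcinoma and cirrhotic liver Adcy2, the cyclic AMP phosphodiesterase gene Pde4a and the protein kinase A inhibitor gene Pkia were higher, by 1.14, 1.19 and 1.34. The list as a whole had median differences of -0.41, -0.08 and 0.36, and only 7 of its 22 genes differed upward between cirrhotic and control liver, where 50.7% of all probes did. With the running median removed that median was -0.57, and Gnas and Pde5a between carcinoma and control, at 0.95 and -1.22, had intervals that took in 0.

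Of the insulin and mTOR list 16 of 18 genes were measured. Pdpk1, which phosphorylates Akt, differed in the same directions as Pik3r2, with -1.84 (-3.03 to -0.65) between cirrhotic and control and 1.34 (0.15 to 2.53) between carcinoma and cirrhotic liver. Igf1r, the IGF1 receptor, ran the other way, with 1.56 (0.26 to 2.86) and -1.83 (-3.13 to -0.53). Tsc1 and Tsc2 encode the complex that restrains mTOR: Tsc1 differed by 1.95 between cirrhotic and control, and Tsc2 by 1.26 between carcinoma and cirrhotic liver. Irs1, the insulin receptor's adaptor, differed by -1.17 in the latter comparison. With the running median removed, carcinoma minus cirrhotic was 0.71 for Tsc2, 0.79 for Pdpk1 and -0.73 for Irs1, and cirrhotic minus control was 1.14 for Igf1r, all with intervals that took in 0. The list's median differences were 0.34, 0.08 and -0.28, and with the running median removed 0.08, 0.07 and 0.03.

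Of the calcium list 15 of 20 genes were measured. Calm3, a calmodulin gene, differed by 1.74 between carcinoma and control and by 1.31 between carcinoma and cirrhotic liver. Plcg1, the phospholipase that makes diacylglycerol and releases calcium below growth factor receptors, differed by 1.53 and 1.38, and all its carcinoma values lay above all values of both other tissues. Itpr3, an endoplasmic calcium channel, differed by -1.41 between carcinoma and cirrhotic liver. Of 5 measured Ras and adaptor genes out of 15 listed, Rasa1 and Nf1, which switch Ras off, differed from control in carcinoma by -2.16 (-3.73 to -0.59) and -1.88 (-3.35 to -0.41), and from cirrhotic liver by -1.71 and -2.12. Hras differed by 1.21 (0.0016 to 2.42) between cirrhotic and control liver. Of these, Hras and the Rasa1 difference from cirrhotic liver had intervals that took in 0 with the running median removed, at 0.85 and -1.35.

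Of the JAK-STAT list 15 of 20 genes were measured. Stat6, which answers to interleukin 4, differed from control by -1.18 in cirrhotic liver and -1.89 in carcinoma. In cirrhotic liver Socs3, a feedback inhibitor of Janus kinases, differed from control by -1.21 and the prolactin receptor gene Prlr by 1.32, and Cish, another feedback inhibitor, differed by 1.20 between carcinoma and cirrhotic liver. The Socs3 and Prlr differences were only -0.38 and 0.36 with the running median removed, and their intervals took in 0. Of the phosphatase list 15 of 22 genes were measured. The calcineurin catalytic subunit genes Ppp3ca and Ppp3cb differed from control in carcinoma in opposite directions, by 1.52 and -1.40. Inppl1, the lipid phosphatase SHIP2, differed by 1.88 in that comparison. The protein phosphatase 2A genes Ppp2cb and Ppp2r2a differed by -1.13 and -1.19 between carcinoma and cirrhotic liver, or by -0.76 and -0.84, with intervals that took in 0, after the running median was removed.

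The immediate early list holds transcription factor genes that MAP kinases switch on, or whose products they phosphorylate, and 12 of 17 were measured. Between cirrhotic and control liver 10 of the 12 differed upward, where 50.7% of all probes did, with a median of 0.59, but no interval excluded 0. Atf2, a factor that JNK and p38 phosphorylate, differed by -1.27 between carcinoma and cirrhotic liver, and by -0.92, an interval that took in 0, with the running median removed. With the running median removed the list's cirrhotic minus control median was 0.17. Of the 5 measured genes among 11 in the AMP-activated kinase list, Gys2, liver glycogen synthase, differed by -2.06 (-3.66 to -0.46) between carcinoma and control, with all carcinoma values below all controls, and by -1.51, an interval that took in 0, with the running median removed.

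The place of a gene in the probe numbering went with part of these differences. Among the probes numbered 3000 to 3927, bounds chosen after the drift was seen, lay 15 of the 59 kinase genes. Of these, 0 differed upward between cirrhotic and control liver, with a median of -0.82 beside -0.76 for all probes there, and 14 differed upward between carcinoma and cirrhotic liver, with a median of 0.79 beside 0.55. Removing the running median from each array left 3, 7 and 8 kinase genes at an unadjusted p under 0.05 in the 3 comparisons, against 4.02%, 8.49% and 9.82% of all probes. Pik3r2 and Mark1 were kept between cirrhotic and control liver, and Map2k5 was added. Between carcinoma and control Prkaca, Prkar1a and Prkce were kept, and Prkar2b, Camkk1, Rps6kb1 and Mark2 were added. Between carcinoma and cirrhotic liver Prkaca, Rps6kb1, Mapk9, Prkcz and Csnk2a1 were kept and Prkcd, Prkar2b and Csnk1g1 were added.

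**Figure D5:**
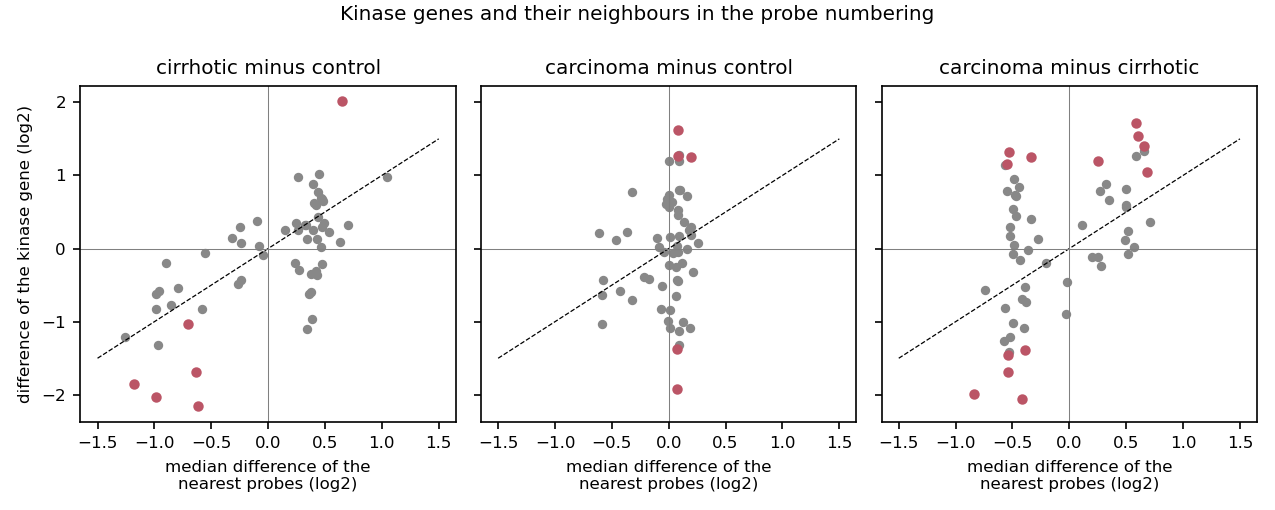
Difference in normalized log2 ratio of each of the 59 kinase genes (vertical axis) against the median difference of the nearest probes in the numbering (horizontal axis), 1 panel a comparison. Between cirrhotic and control liver, genes whose neighbours lie near -0.8 all lie below 0.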

How the data were processed

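Total RNA of 15 rat liver samples, 5 each of control, noncancerous cirrhotic and carcinoma tissue, was measured on 1 array each. The deposited table gives, for 3757 probes, a ratio; the scale was read from the values, since every probe has a median of 1 over the 15 arrays (tolerance 1e-06). How the authors made these deposited ratios, the array design and the scanning are not given in the sources used. No counts, intensities or detection calls come with the ratios, so the precision rests on the number of arrays. Gene symbols came from the platform annotation (3440 probes with 1 symbol, 4 with several, 313 with none), and all 59 kinase symbols matched RefSeq.

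The ratios were quantile-normalized, taken to log2 and fitted with limma 3.58.1 in R 4.3.3 (lmFit, then eBayes with trend, group as the only term, all 15 samples, 12 residual degrees of freedom), with Benjamini-Hochberg adjustment over all probes. Intervals are limma's at 95%. The fit was tested on simulated data. Named are kinase genes with an unadjusted p under 0.05 or with groups that do not overlap in any comparison, and 1 or more core members of each family. Genes of the partner lists are named at an unadjusted p under 0.05. Genes outside this rule that the text mentions were chosen after their values were seen. The members and all lists were chosen with earlier results of these data known. Alternatives were the scaling, the drift along the probe numbering (running median over each probe and 50 to either side), a pseudocount of 0.1, low values, the trend, array weights, the samples fitted, a replicate block and each sample left out. Promoters are RefSeq's, of build GRCr8.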

Additional observations from a re-analysis of the deposited data

Results flagged for a closer look

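Of 90 sets of 5 values tested (30 named kinase genes in 3 tissues), 4 held 1 sample far from the other 4, where chance gives about 1 in 20. Prkar2a in control 4 measured 4.41 and in the other controls 0.06 to 0.45. Camk2a in cirrhotic 3 measured -2.54 and in the other cirrhotic samples -0.60 to -0.09. Mark1 in carcinoma 1 measured -2.27 and in the other carcinomas 0.04 to 0.52. Csnk2a1 in carcinoma 3 measured -0.092 and in the other carcinomas 1.02 to 1.27.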

How the results depend on the processing

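The count of kinase genes with an adjusted p under 0.05 was 0 in the 3 comparisons under every alternative run, each sample left out included. Counts at an unadjusted p under 0.05 were 6, 5 and 13 (cirrhotic minus control, carcinoma minus control and carcinoma minus cirrhotic). Without normalization the last 2 were 2 and 8, and the median carcinoma minus control difference was 0.15. With arrays scaled to a common median the carcinoma minus control count was 2 and its median 0.17. These scalings moved the all-probe median of that comparison by 0.13 and 0.15, and under both the unadjusted p of Pik3r3 (cirrhotic minus control), of Prkce, Prkcz and Prkar1a (carcinoma minus control) and of Mapk9, Prkcb, Prkcz, Camk4 and Akt1 (carcinoma minus cirrhotic) was above 0.05. With the running median removed the first count was 3 and the last 8, and with values floored at the 10th percentile the carcinoma minus control count was 3. Flooring put the unadjusted p of Prkaa2 above 0.05 between cirrhotic and control liver, and of Prkcz and Prkar1a between carcinoma and control. Between carcinoma and cirrhotic liver it did so for Prkaa2, Camk4 and Csnk2a1. Leaving out each sample gave counts of 3 to 7, 1 to 7 and 8 to 14, and medians of -0.17 to 0.084, -0.17 to 0.10 and 0.10 to 0.30. The first count was 3 without control 4, the second was 1 without control 5 and 3 without cirrhotic 3 or 5, and the third was 8 without cirrhotic 2 or carcinoma 4. Both medians of -0.17 came without control 3. No named gene with an unadjusted p under 0.05 changed sign. The cause of these shifts was not tested. The labels do not say that same-numbered samples share an animal, and their deviations correlated at -0.34 to 0.39, so the numbers were not taken as pairs; with the replicate number as a block the counts were 5, 6 and 12. Intervals that reach about 1.24 to either side, and ratios without intensities, limit what small changes can be read.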
